A study of Mus musculus with 6 samples.

Results

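The AP-1 transcription factors and the immediate early factors that accompany them were examined in 2 mouse pheochromocytoma (PHEO) cell lines, MTT and MPC. The group holds 10 genes chosen by name, with earlier results of these data known. They are the Fos family (Fos, Fosb, Fosl1 and Fosl2), the Jun family (Jun, Junb and Jund), and the early factors Egr1, Atf3 and Ier2. Each had 1 probe set that the platform annotation assigns to a single gene symbol, so all 10 were measured, among 19937 genes in all. MPC cells came from a PHEO of Nf1 knock-out mice, and MTT is a faster-growing line that was later established from metastases that MPC cells had formed in the liver. Both lines therefore share the Nf1-mutant origin, each is a single cell line, and the labels name no treatment. The sample labels give "Metastasis" as disease status, and the liver metastasis as source, for all 6 samples, so the MPC group rests on the sample title and the cell type label. RNA of 3 MTT and 3 MPC samples was hybridized to 1 Affymetrix Mouse Gene 1.0 ST array each. The methods describe the MTT samples as separate, and nothing in the sources used here says so of the MPC samples, so the p-values measure only the spread between these samples.

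AP-1 is a dimer of basic leucine zipper (bZIP) proteins. Jun proteins pair with each other or with a Fos protein, Fos proteins need a Jun partner, and the dimers bind short palindromic sites in promoters and enhancers. Fos, Fosb, Jun, Junb, Egr1, Ier2 and Atf3 are immediate early genes, while Jund and Fosl2 are present at steadier levels. Transcription of immediate early genes rises within minutes of a growth factor, serum, depolarization or stress signal without new protein synthesis. In chromaffin cells and in PHEO lines such as PC12, these factors are the classical nuclear response to nerve growth factor and to depolarization, and the Ras-MAPK cascade, which neurofibromin (the Nf1 product) restrains, is the best known route to them.

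The lines differed in 5 of the 10 factors. Fos, Fosb, Junb and Egr1 were lower and Atf3 was higher in MTT cells when an adjusted p under 0.05 was required (limma, with Benjamini-Hochberg adjustment over all genes). Of all 19937 genes tested, 3.94% were lower and 3.93% were higher by the same rule. The remaining factors, Fosl1, Fosl2, Jun, Jund and Ier2, did not pass. The differences were below 2-fold throughout, and the largest, that of Fos, was 1.55-fold. The calls rest on variances moderated across genes: with ordinary variances none of the 10 passed, and with each array left out in turn the count of lower factors fell from 4 to between 1 and 3. The median log2 difference between MTT and MPC cells was -0.10 over the 10 factors and -0.01 over all genes.

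**Figure D1:**
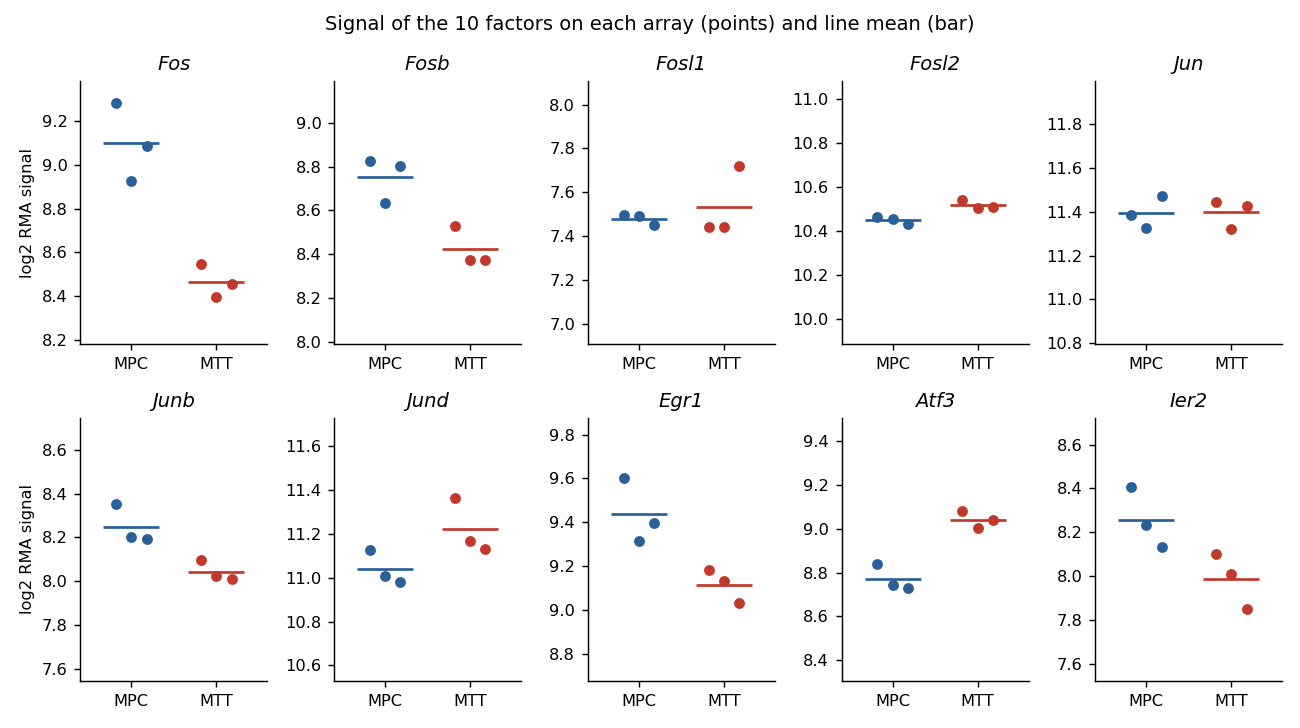
log2 RMA signal (vertical axes, each spanning the same 1.2 log2 units) of the 10 factors on the 3 MPC arrays (blue) and the 3 MTT arrays (red). Each point is 1 array, in the order of replicates 1 to 3, and each bar is the mean of 3. Fos separates most widely, with MTT arrays at 8.40 to 8.55 and MPC arrays at 8.93 to 9.28, while the Jun arrays of both lines cover the same range. Levels cannot be set against each other between genes.

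The promoters of the factors that differed, except Egr1, are shown because early transcription of these genes is driven by sites close to the start of transcription. The RefSeq promoters used here (GRCm38.p6) covered 7 of the 10, and no window was examined for Fosl1, Egr1 and Ier2. Egr1 differed between the lines, so the matches below say nothing of its promoter. The 250 bases before the start are printed for the 4 of the 7 that differed and for Jun, which did not pass. Capitals mark matches on either strand to TGACG, the core of the cyclic AMP response element (CRE), to TGACNTCA, which holds the full CRE and its variant in the Jun promoter, and to TGACTCA, the AP-1 site, where N is any base and a TGACNTCA with G at N also holds TGACG. The windows are chr12:85473640-85473889 on the plus strand for Fos, chr7:19310046-19310295 on the minus strand for Fosb, chr8:84978749-84978998 on the minus strand for Junb, chr1:191183334-191183583 on the minus strand for Atf3 and chr4:95052223-95052472 on the minus strand for Jun.
Fos: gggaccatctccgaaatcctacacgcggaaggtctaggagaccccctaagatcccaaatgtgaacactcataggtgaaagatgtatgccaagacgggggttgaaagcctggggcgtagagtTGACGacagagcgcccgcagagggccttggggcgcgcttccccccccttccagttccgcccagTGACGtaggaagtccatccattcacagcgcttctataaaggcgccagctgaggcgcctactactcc
Fosb: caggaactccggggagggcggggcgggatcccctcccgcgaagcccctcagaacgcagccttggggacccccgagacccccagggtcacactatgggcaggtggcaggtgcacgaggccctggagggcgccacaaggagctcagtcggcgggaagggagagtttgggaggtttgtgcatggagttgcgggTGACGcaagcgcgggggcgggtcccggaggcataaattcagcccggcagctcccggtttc
Junb: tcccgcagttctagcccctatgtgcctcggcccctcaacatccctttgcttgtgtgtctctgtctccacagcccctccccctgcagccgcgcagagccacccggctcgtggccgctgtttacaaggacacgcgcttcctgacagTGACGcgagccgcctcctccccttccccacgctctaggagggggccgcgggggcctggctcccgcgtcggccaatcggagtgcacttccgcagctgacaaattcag
Atf3: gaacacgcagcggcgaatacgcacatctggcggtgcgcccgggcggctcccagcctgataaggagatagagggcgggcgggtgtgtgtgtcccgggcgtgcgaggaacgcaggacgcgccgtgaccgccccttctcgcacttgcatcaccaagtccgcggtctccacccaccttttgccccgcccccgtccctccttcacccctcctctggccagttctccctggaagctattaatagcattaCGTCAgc
Jun: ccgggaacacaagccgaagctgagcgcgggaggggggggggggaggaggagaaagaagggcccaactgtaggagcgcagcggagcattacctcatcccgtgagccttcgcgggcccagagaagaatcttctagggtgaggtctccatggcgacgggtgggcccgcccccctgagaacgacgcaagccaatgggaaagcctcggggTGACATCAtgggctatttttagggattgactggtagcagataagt
A TGACG match lies in the windows of Fos, Fosb, Junb and Atf3, and in none of those of Fosl2, Jun and Jund. The same letters occur in 17.8% of the windows of all 32851 start sites. Fos holds 2 such matches, the nearer one 66 to 62 bases before the start, Fosb 1 at 60 to 56, Junb 1 at 106 to 102, and Atf3 1 on the opposite strand at 7 to 3 bases before the start. The start used for Fosb lies inside the annotated gene, whose outermost start is farther upstream, so the Fosb match is within the gene by that annotation. Jun holds TGACATCA at 45 to 38 bases before the start, a match to TGACNTCA that 7.49% of all windows contain, and no TGACG. The AP-1 site TGACTCA, present in 4.46% of all windows, and the CArG box, the serum response factor site present in 1.47%, were not found in any of the 7 windows. Bases farther upstream than 250 were not searched, so a missing match does not show that a gene lacks the site. The Egr1 site GCGGGGGCG occurs in the windows of Fosb and Fosl2 and in 2.57% of all windows. These are matches of letters within 250 bases and do not show that a factor binds there. Whether TGACG goes with the difference between the lines was not tested. Atf3 differed in the opposite direction to Fos, Fosb and Junb, and the call of Junb was lost whichever array was dropped.

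Fos, the prototype of the family, was the factor with the largest difference. On MTT arrays 1, 2 and 3 it read a log2 signal of 8.55, 8.40 and 8.45, and on the MPC arrays 9.28, 8.93 and 9.09. Every MTT array lay below every MPC array, and the MPC arrays were the more spread. The MTT mean was 8.47 ± 0.07 and the MPC mean 9.10 ± 0.18 (SD, n = 3 each). Fos thus fell by 0.63 on the log2 scale in MTT cells (standard error 0.08, limma adjusted p = 0.00342). In RNA of whole cultures, fewer cells expressing a gene and less RNA per cell cannot be told apart. In absolute size this difference ranked above those of 99.4% of all genes. The call survived the loss of any 1 array, with an adjusted p from 0.00188 to 0.0190, and ended with ordinary variances (adjusted p = 0.0753).

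Fosb, the closest relative of Fos and the source of the long-lived ΔFosB protein of neurons, was also lower. It read 8.53, 8.38 and 8.37 on the MTT arrays and 8.82, 8.63 and 8.80 on the MPC arrays. The lines did not overlap, though the gap between them was smaller than the range within either line. Fosb fell by 0.33 on the log2 scale (standard error 0.06, limma adjusted p = 0.0183). Omitting single arrays ended it in 4 of 6 cases, those that dropped replicate 2 or 3 of MTT or replicate 1 or 3 of MPC (adjusted p 0.0599 to 0.0754). The array's probe set reads the gene and does not tell the FosB and ΔFosB transcripts apart.

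The Fos-related antigens Fosl1 (Fra-1) and Fosl2 (Fra-2), which lack the transactivation domain of Fos, did not pass. Fosl1, which many tumor cells with active Ras-MAPK signaling express, read 7.44, 7.44 and 7.72 on the MTT arrays and 7.50, 7.49 and 7.45 on the MPC arrays. MTT replicate 3 alone stood above the other 5 arrays, and without it the log2 difference turned from 0.05 to -0.04. Fosl1 lies on chromosome 19, whose 675 genes had a median log2 difference of -0.06. Fosl2 read 10.54, 10.50 and 10.51 on the MTT and 10.46, 10.45 and 10.43 on the MPC arrays. Its arrays did not overlap, with the MTT arrays above, but the log2 difference was 0.07 (95% interval -0.004 to 0.14, limma adjusted p = 0.273).

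Of the Jun family, Jun and Jund did not pass and Junb was lower. Jun, the partner in most AP-1 dimers, read 11.44, 11.32 and 11.43 on the MTT arrays and 11.39, 11.33 and 11.47 on the MPC arrays. The arrays of the lines overlapped, and the log2 difference of 0.00 had a 95% interval from -0.11 to 0.12, which leaves room for a change of up to about that size in either direction. Junb, which shares the Jun dimer partners but activates transcription more weakly, read 8.10, 8.02 and 8.01 on the MTT and 8.35, 8.20 and 8.19 on the MPC arrays. Each MTT array lay below each MPC array. Junb fell by 0.20 on the log2 scale (standard error 0.05, limma adjusted p = 0.0487), close to the threshold, and the call was lost whichever array was dropped (6 of 6, adjusted p 0.0567 to 0.153) and when the arrays were centered on their medians (adjusted p = 0.0606). Jund, the Jun protein most abundant in resting cells, read 11.36, 11.17 and 11.13 on the MTT and 11.13, 11.01 and 10.98 on the MPC arrays. The MTT arrays lay above the MPC arrays by a narrow margin, and the log2 difference of 0.18 (95% interval 0.03 to 0.34) did not pass (limma adjusted p = 0.171), but did with a mean-variance trend (adjusted p = 0.0450).

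Egr1, a zinc finger factor of the same early wave and a known activator of the Pnmt promoter in chromaffin cells, read 9.18, 9.13 and 9.03 on the MTT arrays and 9.60, 9.31 and 9.40 on the MPC arrays. The MTT arrays were all lower, and MPC replicate 1 was the highest. Egr1 fell by 0.32 on the log2 scale (standard error 0.07, limma adjusted p = 0.0375), and of the fits without 1 array only that without MPC replicate 2 kept the call (adjusted p = 0.0302), the others giving 0.0583 to 0.121. Pnmt itself read 6.97 ± 0.04 in MTT cells and 7.08 ± 0.01 in MPC cells (SD, n = 3 each) and did not pass (limma adjusted p = 0.132). Both means lay under 7.15, the 95th percentile of olfactory receptor genes, which were taken as silent.

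Ier2, a small nuclear protein of the early response, read 8.10, 8.01 and 7.85 on the MTT arrays and 8.41, 8.23 and 8.13 on the MPC arrays. Its lines were separated by a margin far smaller than the spread within either. The log2 difference was -0.27 (95% interval -0.46 to -0.08) and did not pass (limma adjusted p = 0.0978). It did when the variance was allowed to follow the signal (adjusted p = 0.0294) and with a block on the replicate number (adjusted p = 0.00932). The spread of Ier2 between arrays of a line was above that of 96.6% of all genes.

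Atf3, a bZIP factor of the stress response that pairs with Jun proteins and mostly represses transcription, went the other way. It read 9.08, 9.004 and 9.04 on the MTT arrays and 8.84, 8.74 and 8.73 on the MPC arrays. All MTT arrays lay above all MPC arrays, and the distance was larger than the spread of either line. In MTT cells Atf3 rose by 0.27 on the log2 scale (standard error 0.04, limma adjusted p = 0.00631). Dropping any 1 array kept the call (adjusted p 0.00776 to 0.0323), which ended with ordinary variances (adjusted p = 0.0554).

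**Figure D2:**
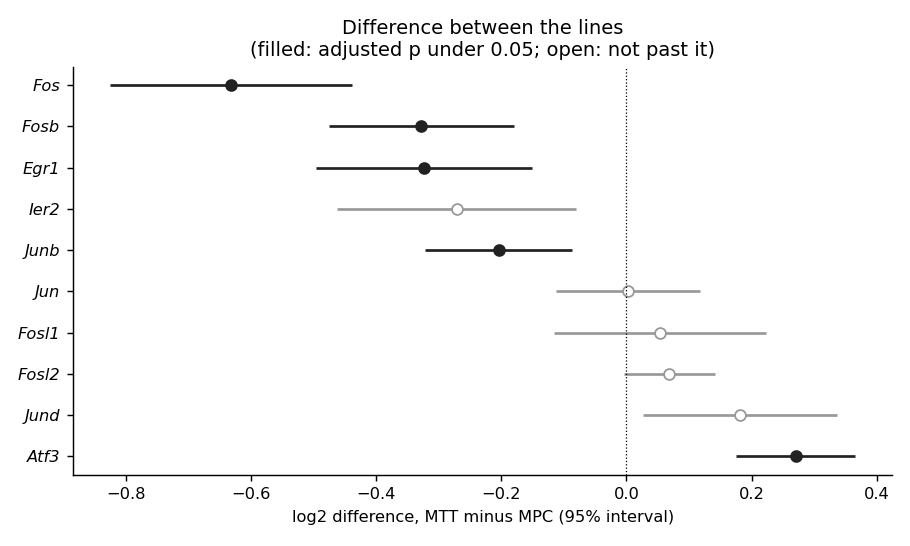
Difference in log2 signal, MTT minus MPC (horizontal axis), of the 10 factors (vertical axis, sorted). Points are limma estimates from 3 arrays a line, bars are 95% intervals without adjustment for the number of genes, and filled points passed an adjusted p under 0.05. Fos lies farthest to the left at -0.63 and Atf3 farthest to the right at 0.27.

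Counted over arrays, 5 of the 10 factors (Fos, Fosb, Junb, Egr1 and Ier2) had every MTT array below every MPC array, where 15.4% of all genes did, and 3 (Fosl2, Jund and Atf3) had every MTT array above, where 11.7% of all genes did. Together that is 8 of 10 without overlap, against 27.2% of all genes, and in Fosl1 and Jun the arrays overlapped. The size of the difference was in the upper part of the distribution over all genes for 7 of the factors, from the 92.7 percentile for Jund to the 99.4 percentile for Fos, while that of Jun was at the 2.97 percentile.

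Most of the factors also moved together between arrays of 1 line. Leaving Fosl1 and Jun aside, Pearson's r of the deviations from the line mean ran from 0.44 (Fosb and Fosl2) to 0.94 (Atf3 and Junb). Fosl1 ran against Ier2 (r -0.53), and Jun was nearly unrelated to Junb (0.06). On MPC replicate 1, 9 of the 10 read above their MPC mean, Fos by 0.18, Egr1 by 0.17, Ier2 by 0.15 and Junb by 0.10 on the log2 scale. On MTT replicate 1, 9 of the 10 again read above their line mean, Jund by 0.14, Ier2 by 0.11, Fosb by 0.10 and Fos by 0.08. The exceptions were Jun on the former and Fosl1 on the latter array. On each of the other 4 arrays 2 of the 10 read above the mean of their line. Deviations from a line mean balance out, so a high replicate 1 lowers the other replicates. The share of all genes above their line mean on these arrays was not determined. The median signal of replicate 1 was 7.727 in MTT and 7.729 in MPC cells, the lowest of its line. Averaged over the 10 factors, the arrays deviated by 0.08, -0.06 and -0.03 in MPC and by 0.06, -0.04 and -0.02 in MTT cells, in the order of replicates 1 to 3. Without replicate 1 of both lines, a setting added once the data had been examined, Fos was lower by a log2 difference of -0.58 (adjusted p = 0.0128) and Atf3 higher by 0.28 (adjusted p = 0.0362), and the calls of Fosb, Egr1 and Junb ended (adjusted p 0.0648, 0.0821 and 0.114), in a fit with 2 arrays a line.

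**Figure D3:**
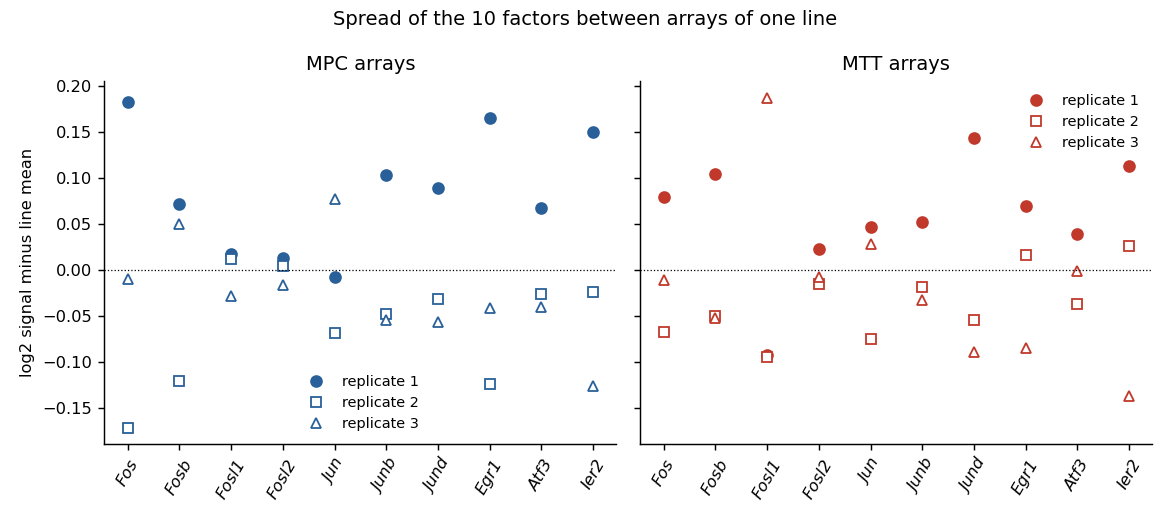
Deviation of each array from the mean of its line (vertical axis, log2 units) for the 10 factors (horizontal axis) in MPC cells (left, blue) and MTT cells (right, red). Each point is 1 array, and filled circles are replicate 1. Replicate 1 lies above 0 for 9 of 10 factors in both lines, by up to 0.18 for Fos in MPC cells.

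An array has no true zero, so the level that a silent gene reads was taken from 1027 olfactory receptor genes, which serve smell and are not expected to be expressed in these cells. Their mean log2 signal had a median of 5.16 and a 95th percentile of 7.15. All 10 factors read above that percentile on every array, Fosl1 most narrowly with 7.44 on its lowest array. A signal includes background, which compresses the fold of dim genes. The labelled cell type was borne out by its markers: 8 of 9 measured chromaffin genes read above 7.15, among them Th, which encodes tyrosine hydroxylase and read 13.46 in MTT and 13.49 in MPC cells, and the exception was Pnmt. Of the chromaffin genes Slc18a1 was higher (log2 difference 0.27) and Chgb lower (-0.15) in MTT cells, where 7.87% of all genes differed. Chgb passed in 1 of 6 fits that dropped an array. The summed linear signal of these markers was 44171 to 45075 in MTT and 45069 to 45707 in MPC cells. Most genes of other cell types stayed under that level: 1 of 7 hepatocyte markers (Apoa1), 2 of 6 adrenal cortex, 2 of 5 endothelial, 1 of 6 macrophage and 4 of 6 fibroblast markers read above 7.15, the fibroblast gene Col1a1 at a mean of 8.74 over the arrays, and none of these 30 genes passed limma's test (2 had an unadjusted p under 0.05, as did 20.5% of all genes). Their summed linear signals overlapped between the lines, at 1218 to 1294 in MTT and 1235 to 1354 in MPC cells for fibroblasts and 730 to 760 and 713 to 744 for hepatocytes. Alb, the defining hepatocyte gene, read 6.32 and 6.28.

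Of 38 measured other immediate early genes, 2 were higher, 2 lower and 34 did not pass, at a median log2 difference of 0.03, where 7.87% of all genes tested differed in either direction. The count of 4 rose to 8 with a mean-variance trend, where 1114 of all 19937 genes were higher and 1302 lower. Among the 9968 genes above the median signal the count was 9, with 1012 genes higher and 1195 lower. Plk2, a polo-like kinase induced by serum and by neuronal activity, read 9.95, 9.91 and 9.88 on the MTT arrays and 9.40, 9.38 and 9.31 on the MPC arrays. It rose by 0.55 on the log2 scale (limma adjusted p = 0.000108), with a gap between the lines several times the spread within them. Plk2 lies on chromosome 13, whose genes had a median log2 difference of 0.08. Nr4a2, an orphan nuclear receptor of catecholamine neurons, rose by 0.22, but not when MTT replicate 1 or 3 or MPC replicate 2 was dropped (adjusted p 0.0605 to 0.0706). Gadd45b, a stress sensor, fell by 0.25 (limma adjusted p = 0.00722), and Homer1, a scaffold protein whose short form is induced by activity and whose gene also lies on chromosome 13, fell by 0.22, though it missed the threshold once MTT replicate 2 was dropped (adjusted p = 0.0522). Egr2, Egr3 and Egr4, the relatives of Egr1, named here after their values were seen, had log2 differences of -0.15, 0.05 and -0.002 and did not pass. The same holds for Nr4a1 (-0.13), Zfp36 (-0.19), Btg2 (-0.27) and Dusp1 (0.07), further genes of the early response also chosen after their values were known. It holds too for Sgk1 (0.15) and Trib1 (0.14), and of the 38 genes 16 had a negative log2 difference.

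Of 24 measured bZIP proteins that pair with Fos or Jun or bind related sites, 2 were higher, 1 lower and 21 did not pass. Their median log2 difference was 0.01, and 7.87% of all genes tested differed in either direction. Nfil3, a repressor of the same superfamily on chromosome 13, rose by 0.27 on the log2 scale (limma adjusted p = 0.0104), with means of 8.97 ± 0.05 in MPC cells and 9.24 ± 0.07 in MTT cells (SD, n = 3 each). Creb5, a CRE-binding protein that pairs with Jun, rose by 0.15, and Atf1, a close relative of CREB that binds the CRE, fell by 0.16. When single arrays were dropped, Atf1 missed the threshold in 6 of 6 cases (adjusted p 0.0574 to 0.137) and Creb5 in 5 (0.0617 to 0.0947), passing without MPC replicate 3 (adjusted p = 0.0482).

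Among 20 measured kinases and cofactors upstream of these genes, none was higher and 1 was lower, a count near the 7.87% of all genes. It rose to 5 with a mean-variance trend, where 1114 of all 19937 genes were higher and 1302 lower. Among the 9968 genes above the median signal it was also 5, with 1012 genes higher and 1195 lower. Other genes of that list were not analysed here. Rps6ka5, which encodes MSK1, a kinase that phosphorylates CREB, ATF1 and histone H3 at early gene promoters, read 9.40, 9.34 and 9.41 on the MTT arrays and 9.66, 9.62 and 9.55 on the MPC arrays. The arrays did not overlap. Rps6ka5 fell by 0.23 on the log2 scale (standard error 0.04, limma adjusted p = 0.0123), and dropping MTT replicate 2 ended the call (adjusted p = 0.0574).

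None of 30 measured textbook targets of AP-1 or Egr1 passed limma's test (9 had an unadjusted p under 0.05, as did 20.5% of all genes), and 17 of them read above the silent level. The median log2 difference was -0.04. The smallest p-values were those of the growth factor Pdgfa, with a log2 difference of -0.14 (limma adjusted p = 0.0665), and the hyaluronan receptor Cd44, with one of -0.13 (adjusted p = 0.0680), whose signal of 6.70 in MTT and 6.82 in MPC cells is not shown to lie above background. Th, whose promoter carries an AP-1 and a CRE site, had a log2 difference of -0.03 (adjusted p = 0.685). Of 12 measured heat shock and integrated stress genes none passed either (3 at an unadjusted p under 0.05). Asns, the asparagine synthetase that ATF4 induces, had a log2 difference of 0.13 (adjusted p = 0.0620) and Chac1, another ATF4 target, one of 0.15 (adjusted p = 0.0744). With a mean-variance trend 3 of the targets and 3 of the stress genes passed, with 1114 of all 19937 genes higher and 1302 lower. Among the 9968 genes above the median signal 5 targets and 3 stress genes passed, with 1012 genes higher and 1195 lower.

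**Figure D4:**
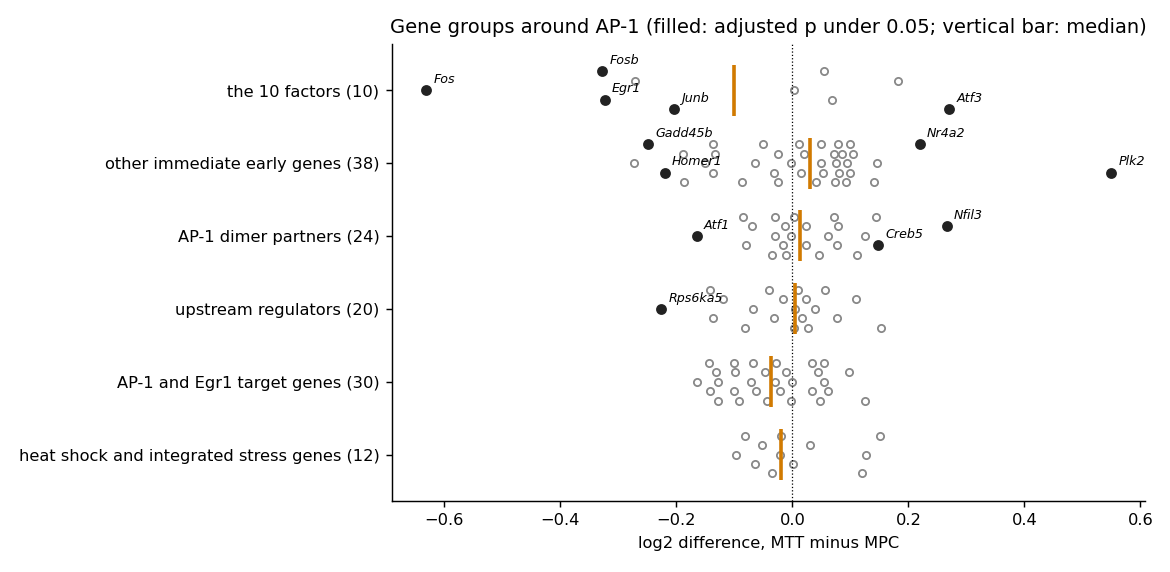
log2 difference between MTT and MPC cells (horizontal axis) of the 10 factors and of 5 related gene groups (rows, with the number measured). Each point is 1 gene, filled and named where it passed an adjusted p under 0.05, with a vertical bar at the median and heights within a row set only to part the points. Fos lies at -0.63 and Plk2 at 0.55, while the medians of the other groups stay between -0.04 and 0.03.

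The genes whose signal ran most like that of each factor that differed were sought among the 9967 or 9968 other genes above the median signal, by Pearson's r over the 6 arrays, as a description without a test. For Fos they were Faim2, Rnf213, Atg2a, Zranb3 and Cystm1 (r 0.992 to 0.994). For Egr1 they were 2310057M21Rik, Them6, Myc, Gadd45g and Ttc12 (r 0.987 to 0.996). Junb was most like Pdzd8, Lrrn2, 2310057M21Rik, Fads1 and Parp3 (r 0.992 to 0.997), and Fosb most like Zcchc2, Anxa11, Dpf2, Ciart and H2bc18 (r 0.984 to 0.991). Atf3 was most like Pcdhb3, Ptprn, Rufy1, Scn3b and Smtn (r 0.993 to 0.997). All points share 6 arrays and 1 normalization, and a difference between the lines alone raises r. Myc, among those nearest to Egr1, read 9.19, 9.15 and 9.07 on the MTT and 9.41, 9.26 and 9.32 on the MPC arrays, a log2 difference of -0.19 that did not pass (limma adjusted p = 0.0575).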

How the data were processed

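Gene expression was measured on 6 Affymetrix Mouse Gene 1.0 ST arrays, 3 of MTT and 3 of MPC cells, grouped by sample title. The authors deposited log2 values after RMA (background subtraction, quantile normalization and probe set summary). The methods name Partek and R, while Affymetrix Expression Console comes from the submitters' processing notes, none with a version in the sources used here. Gene-wise Z-scores are not in the values. Array medians were 7.73 to 7.77.

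Of 34760 probe sets, 21640 carried 1 gene symbol and gave 19937 genes, the brightest probe set being used where a gene had several. Lines were compared with limma 3.58.1 in R 4.3.3 (lmFit and eBayes, two-sided), adjusted by Benjamini-Hochberg over all genes; the code was tested on simulated data. Chromosomes and promoters came from RefSeq (GRCm38.p6), used for names, chromosomes and sequence, as no build is named for the files. The number of arrays limits the precision. Other lists were reported by counts. Members and lists were chosen with earlier results of these data known. Named genes were the 10 members, up to 6 genes past the threshold per list (2 with the smallest p where none was), the highest and lowest marker of a cell type, and 5 most like each called member; other genes were named after their values were seen. Alternatives were ordinary variances (the analysis of variance of the methods), a block on the replicate number, a trend of variance with signal, other probe set and gene filters, 2 further normalizations, and leaving out arrays. The human arrays and the drug screen were not analysed here. Figures were drawn with matplotlib 3.10.9.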

Additional observations from a re-analysis of the deposited data

How the results depend on the processing

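The directions of Fos, Fosb, Junb, Egr1, Atf3, Ier2, Jund and Fosl2 were the same under every alternative run (Junb, Ier2 and Fosl1 fall below the filter on the median signal and have no value there), and those of Jun and Fosl1 were not: without 1 array the log2 difference of Jun ran from -0.032 to 0.041, being -0.021 without MTT replicate 1, -0.012 without MTT replicate 3, -0.0017 without MPC replicate 1 and -0.032 without MPC replicate 2 (-0.025 without replicate 1 of both lines), and that of Fosl1 from -0.040, without MTT replicate 3, to 0.10. With ordinary variances no factor was lower or higher (0 and 0), and 428 genes were higher and 396 lower, with 1 dimer partner, 1 other immediate early gene and 0 upstream regulators called. With all probe sets in the adjustment, 1 factor was lower (Fos), 411 genes were higher and 337 lower, and 0 dimer partners, 0 upstream regulators and 1 chromaffin marker were called. With a mean-variance trend 2 factors were higher, Jund being added (adjusted p = 0.0450), Ier2 was lower (adjusted p = 0.0294), 1114 genes were higher and 1302 lower, and 8 other immediate early genes, 5 upstream regulators, 3 targets and 3 stress genes were called. Among genes above the median signal 1012 genes were higher and 1195 lower, and 9 other immediate early genes, 5 upstream regulators, 5 targets and 3 stress genes were called. Quantile normalization again gave 930 genes higher and 846 lower, with 2 upstream regulators, 1 target and 2 stress genes called. It ended the call of Junb (limma adjusted p = 0.0699), as did median centering.

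The replicate numbers of the titles were not taken to pair the arrays. The deviations of same-numbered arrays from their line means correlated at 0.12, 0.07 and 0.25 over all genes, though each array correlated best with the array of its own number. With the replicate block Fos, Fosb, Junb, Egr1 and Atf3 stayed past the threshold (Fos at an adjusted p of 0.00116), 2 factors were higher, Jund being added (adjusted p = 0.0339), Ier2 was lower (adjusted p = 0.00932) and 1 stress gene was called.

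Leaving out 1 array gave 1 factor higher throughout, 1 to 3 lower, 462 to 617 genes higher and 429 to 659 lower, with 1 to 2 dimer partners, 3 to 4 other immediate early genes, 0 to 2 upstream regulators, 1 to 2 chromaffin markers and 0 to 1 endothelial markers called. By array, 2 factors were lower without MTT replicate 1, 1 without MTT replicate 2, 1 without MTT replicate 3, 1 without MPC replicate 1, 3 without MPC replicate 2 and 1 without MPC replicate 3. Without replicate 1 of both lines 1 factor was higher and 1 lower, 277 genes were higher and 230 lower, and 1 dimer partner, 1 other immediate early gene, 0 upstream regulators and 0 chromaffin markers were called. Of the 30 targets 17 read above the level of silent genes, and a difference in the others may be compressed by background.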
